A study of Mus musculus with 12 samples.

Results

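Tusc3 and 9 further subunits of the oligosaccharyltransferase (Magt1, Stt3a, Stt3b, Rpn1, Rpn2, Ddost, Dad1, Ostc and Krtcap2) were followed in whole kidneys of 12 mice. They are 10 of the 46882 gene names in the count table and were taken by name. All 10 had enough reads to be among the 16910 genes tested. Tusc3 was selected on its lower CPM in A1cf -/- kidneys (the same libraries as here), so its genotype difference is given as values without a test. Magt1 was taken as its paralog, and the other genes as subunits of the same enzyme.

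The animals were C57BL/6 mice aged 6 to 8 weeks, 6 wild type (WT) and 6 A1cf -/-, which the series describes as biological replicates. A1cf encodes an RNA-binding protein known as a partner of the cytidine deaminase APOBEC1. No treatment is labelled in either group, and how the A1cf allele was made is not given in the sources used here. Libraries are named by animal number, WT 573, 590, 601, 776, 777 and 778 and A1cf -/- 574, 584, 588, 591, 602 and 780. The levels come from RNA of the whole organ, so fewer cells of a type and less RNA per cell cannot be told apart.

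The oligosaccharyltransferase sits in the membrane of the endoplasmic reticulum and moves a preassembled sugar chain from a dolichol lipid onto asparagines of newly made proteins. Mammalian cells hold a form built on the catalytic subunit STT3A, which works while the chain enters the translocon, and a form built on STT3B, which can act later. TUSC3 and MAGT1 are alternative subunits of the STT3B form. Both have a thioredoxin-like domain in the lumen, help to glycosylate sites near cysteines, and were also described as magnesium transporters. In the kidney, secreted and apical glycoproteins such as uromodulin and megalin depend on this step.

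Totals ran from 26671705 to 52899139 counts per library. Levels are given as CPM, counts brought to a common library total after scaling by the trimmed mean of M values (TMM), and where a pair of values is given the WT value comes first. A1cf averaged 54.5 ± 7.39 CPM over the WT and 4.11 ± 1.07 CPM over the A1cf -/- libraries (SD, n = 6 each), and no library went against its label. The labels do not say which exons the allele removes. The edgeR quasi-likelihood test called 8 of 16910 genes at an adjusted p under 0.05 (0.0473%), 6 lower (0.0355%) and 2 higher (0.0118%) in A1cf -/-. For the animal numbers, 3 WT and 5 A1cf -/- animals were 573 to 602, and 3 WT and 1 A1cf -/- animals were 776 to 780. The labels name no batch.

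Tusc3 was the only 1 of the 10 subunits whose genotypes did not overlap, beside 0.84% of all tested genes, from which nothing is read because this difference chose the gene. It averaged 36.2 ± 2.49 in WT against 27.0 ± 1.54 CPM in A1cf -/- (SD, n = 6 each), or 74.7% of WT. In WT the lowest, median and highest libraries were at 32.3, 36.5 and 39.5 CPM, and in A1cf -/- at 25.3, 26.8 and 29.0 CPM. The highest A1cf -/- library, 780, thus lay below the lowest WT library, 778. On the log2 scale the edgeR fold change was -0.42 (SE 0.060). Behind these values stood 945 to 1949 counts in a WT library and 857 to 1470 in an A1cf -/- library. The gene lies on chromosome 8 of mm10 from 39005867 to 39165112 on the plus strand, and its 10 counted exon segments span 1511 bases.

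The Tusc3 values were lower in A1cf -/- in both ranges of animal numbers. Any division of groups that do not overlap gives this, so it is a description. Among animals 573 to 602, WT libraries were at 36.7 to 39.5 CPM (n = 3) and A1cf -/- libraries at 25.3 to 28.6 CPM (n = 5). In animals 776 to 780, WT libraries were at 32.3 to 36.3 CPM (n = 3), and the only A1cf -/- library was at 29.0 CPM. The gap was narrower in the second range, which holds the lowest WT and the highest A1cf -/- value. With 1 A1cf -/- library there, the difference between the ranges was not tested.

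Magt1, the paralog, did not pass the test between genotypes. It averaged 82.8 ± 4.97 in WT against 85.8 ± 3.13 CPM in A1cf -/- (SD, n = 6 each). Its lowest, median and highest libraries were at 77.2, 82.2 and 90.2 CPM in WT and at 80.5, 86.0 and 89.4 CPM in A1cf -/-, so the groups overlapped over most of their range. The log2 fold change was 0.051 (SE 0.050, edgeR adjusted p = 0.76). Its 95% interval ran from 0.962 to 1.12 times the WT level. Magt1 lies on chromosome X from 105968084 to 106011906 on the minus strand, with 11 exon segments of 4672 bases in all.

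**Figure D1:**
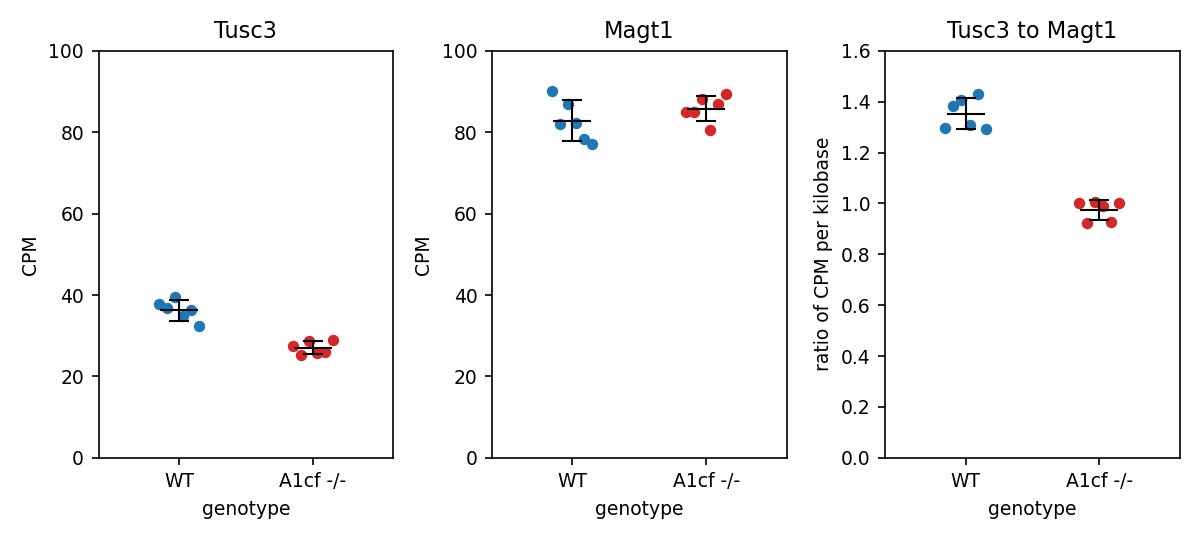
CPM (y axis from 0) of Tusc3 and Magt1 and the ratio of their CPM per kilobase in each library, by genotype (WT blue, A1cf -/- red, n = 6 each), with the mean and SD in black. Tusc3 lies at 25.3 to 29.0 CPM in A1cf -/- and 32.3 to 39.5 CPM in WT, while the Magt1 groups overlap.

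The balance of the pair was compared next. Per kilobase of counted exons, which allows genes to be compared, Tusc3 was above Magt1 in all 6 WT libraries. The ratio of the per-kilobase levels was 1.29 to 1.43 there, with a mean of 1.35 ± 0.061 (SD, n = 6). In A1cf -/- libraries it was 0.922 to 1.00, with a mean of 0.975 ± 0.039, so both transcripts stood close to equal. The share of Tusc3 in the summed pair was 57.5 ± 1.11% in WT and 49.3 ± 1.02% in A1cf -/-. The ratio and the share hold the Tusc3 value that chose the gene and are a description.

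Summed over the pair, the per-kilobase level averaged 41.7 ± 2.55 in WT against 36.3 ± 1.56 CPM in A1cf -/- (SD, n = 6 each). WT libraries ran from 37.9 to 44.7 and A1cf -/- libraries from 34.3 to 38.3, so the summed levels overlapped, with WT 778 at the lower end of WT. Relative to Stt3b, the catalytic subunit that the pair joins, the summed level was 1.30 ± 0.073 in WT and 1.08 ± 0.041 in A1cf -/-. These ratios did not overlap between genotypes, with WT from 1.18 to 1.36 and A1cf -/- from 1.02 to 1.13. They too hold the Tusc3 value.

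The catalytic subunits did not pass the test. Stt3a averaged 90.6 ± 5.30 in WT against 88.4 ± 4.50 CPM in A1cf -/- (log2 fold change -0.036, SE 0.053, edgeR adjusted p = 0.86). Its lowest, median and highest libraries were at 80.2, 93.0 and 93.8 CPM in WT and at 82.4, 87.9 and 95.2 CPM in A1cf -/-. A single library, WT 778, set the lower end of WT, and the others of that group lay at 89.9 CPM or above. Stt3b averaged 135 ± 3.04 in WT against 141 ± 6.99 CPM in A1cf -/- (log2 fold change 0.059, SE 0.046, edgeR adjusted p = 0.69). Its libraries ran from 130.0 to 138 CPM with a median of 136 CPM in WT, and from 129 to 149 CPM with a median of 140.1 CPM in A1cf -/-. The WT range of Stt3b lay inside the A1cf -/- range.

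Both catalytic genes lie on chromosome 9 on the minus strand, Stt3a from 36729344 to 36767679 and Stt3b from 115242607 to 115310421. The balance between them was tested with 1 value per library, the log2 ratio of Stt3a to Stt3b per kilobase. As a linear ratio on counted exons it was 0.315 ± 0.019 in WT and 0.295 ± 0.014 in A1cf -/- (SD, n = 6 each). The size of the ratio depends on the gene lengths used, but its log2 difference between genotypes does not. The log2 difference of -0.093 did not pass the exact two-sided permutation test (p = 0.063), for which 924 divisions of the libraries give 0.0022 as the smallest possible p. In 5 of 6 A1cf -/- libraries the ratio was below the WT mean. This result turned on single libraries. The difference was -0.13 without WT 778 (exact permutation p = 0.011) and -0.12 without A1cf -/- 588 (exact permutation p = 0.035). Without WT 590 it was -0.072 (exact permutation p = 0.13), and the largest exact permutation p without 1 library was 0.15.

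Among the shared subunits, Rpn1, Rpn2, Ddost and Dad1, none passed the test. Rpn1 and Rpn2 encode ribophorins, Ddost encodes OST48, and Dad1 encodes a small membrane subunit named as a defender against cell death. Rpn1 averaged 201 ± 14.8 in WT against 213 ± 16.9 CPM in A1cf -/-, and Rpn2 averaged 175 ± 18.5 and 172 ± 16.9 CPM. Ddost averaged 90.7 ± 8.53 in WT against 93.4 ± 7.86 CPM in A1cf -/-, and Dad1 averaged 82.0 ± 9.96 and 77 ± 7.41 CPM (SD, n = 6 each). Their log2 fold changes were 0.086, -0.025, 0.042 and -0.091 in that order, and the edgeR adjusted p ran from 0.68 to 0.93. The intervals allowed Rpn1 to lie between 0.963 and 1.17 times the WT level and Dad1 between 0.828 and 1.07 times. In mm10, Rpn1 lies on chromosome 6 from 88084482 to 88105304 and Rpn2 on chromosome 2 from 157279017 to 157326319, both on the plus strand. Ddost, also on the plus strand, spans 138304730 to 138312628 of chromosome 4, and Dad1 on chromosome 14 from 54235479 to 54254104 on the minus strand.

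These 4 shared subunits were highest in the same animals. In WT all 4 were highest in animal 590, and in A1cf -/- all 4 were highest in animal 602, as were Ostc and Krtcap2. Rpn2, for example, ran from 152 CPM in WT 776 to 207 CPM in WT 590, and from 153 CPM in A1cf -/- 584 to 197 CPM in A1cf -/- 602. Rpn1 ran from 184 CPM in WT 776 to 219 CPM in WT 590, and from 190.2 CPM in A1cf -/- 584 to 234 CPM in A1cf -/- 602. Ddost reached 105.5 CPM in WT 590 and 106 CPM in A1cf -/- 602 from lowest values of 82.4 and 85.7 CPM. Dad1 was lowest in WT 777 at 67.0 CPM and in A1cf -/- 780 at 66.7 CPM. Tusc3 was highest in WT 601, as were Stt3a, Stt3b and Krtcap2, and in A1cf -/- 780, as were Magt1 and Stt3b. It was lowest in WT 778, as were Magt1 and Stt3a.

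Sequence just upstream of the counted exons is shown for Rpn1, Rpn2 and Ddost, which were highest in the same animals, and for Magt1, the paralog of Tusc3. Dad1 was highest in those animals too, but its window holds too few bases before the counted exons to print. RefSeq promoter windows (GRCm38.p6, 250 bases before to 50 after a start) were matched by symbol for 8 of the 10 genes, without Tusc3 and Ostc. The stretches are chrX:106011907-106012052 on the minus strand for Magt1, chr6:88084223-88084472 on the plus strand for Rpn1, chr2:157278848-157279016 on the plus strand for Rpn2 and chr4:138304488-138304729 on the plus strand for Ddost. Each runs 5′ to 3′, and capitals mark CCAAT on either strand (ATTGG where it lies on the other one).
Magt1: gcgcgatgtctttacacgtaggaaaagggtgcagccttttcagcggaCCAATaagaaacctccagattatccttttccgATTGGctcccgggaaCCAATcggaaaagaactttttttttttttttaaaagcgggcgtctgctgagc
Rpn1: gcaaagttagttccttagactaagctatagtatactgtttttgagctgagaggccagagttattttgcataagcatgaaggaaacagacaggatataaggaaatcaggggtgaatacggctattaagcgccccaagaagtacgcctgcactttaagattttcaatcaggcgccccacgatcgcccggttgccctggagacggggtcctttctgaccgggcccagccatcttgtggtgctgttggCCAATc
Rpn2: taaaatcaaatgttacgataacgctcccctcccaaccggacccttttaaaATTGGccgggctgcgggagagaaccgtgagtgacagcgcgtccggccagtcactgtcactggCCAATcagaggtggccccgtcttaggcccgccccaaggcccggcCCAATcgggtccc
Ddost: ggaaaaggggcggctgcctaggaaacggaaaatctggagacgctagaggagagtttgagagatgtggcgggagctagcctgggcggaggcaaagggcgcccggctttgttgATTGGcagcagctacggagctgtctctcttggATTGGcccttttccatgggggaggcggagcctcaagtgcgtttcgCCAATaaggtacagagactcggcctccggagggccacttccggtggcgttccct

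CCAAT, the core of the site bound by the factor NF-Y, was searched on both strands of the whole windows. It occurred in 7 of 8 windows, all but that of Krtcap2, and in 37.4% of 32851 windows of the same length. In the printed stretches Magt1, Rpn2 and Ddost have 3 copies each and Rpn1 has 1. The matching stretches of Stt3a and Stt3b, not printed, have 0 and 1. A match is a description of letters, not of binding.

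The coefficient of variation within WT was 6.87% for Tusc3 and 6.00% for Magt1, and it was 10.6% for Rpn2 and 12.1% for Dad1. Stt3b varied least in WT, at 2.25%. For each of the 4 shared subunits the SD within WT was wider than the gap between genotype means.

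Ostc and Krtcap2 belong to the STT3A form, where they bridge the enzyme to the translocon. Ostc averaged 26.1 ± 2.39 in WT against 25.3 ± 1.48 CPM in A1cf -/- (log2 fold change -0.046, SE 0.067, edgeR adjusted p = 0.85). Krtcap2, whose protein is also called KCP2, was at 33.4 ± 3.53 and 33.1 ± 3.0 CPM (log2 fold change -0.016, SE 0.079, edgeR adjusted p = 0.96). Both had WT and A1cf -/- libraries over nearly the same range, 23.1 to 29.5 against 23.2 to 27.8 CPM for Ostc and 28.5 to 38.4 against 29.1 to 36.8 CPM for Krtcap2. Exons of Krtcap2 share 239 bases (15.7% of its counted length) with Trim46 on the other strand, so reads there could not be assigned by strand. Krtcap2 spans 89245966 to 89249906 of chromosome 3 (plus strand), and Ostc on the same chromosome from 130695912 to 130709444 on the minus strand. Trim46 itself was at a mean of 3.41 CPM over all libraries. Rpn2 shares 242 bases with Mroh8, which was at 0.127 CPM.

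Counted together, 0 of the 9 subunits besides Tusc3 passed by edgeR, where 0.0473% of all tested genes did. With p not adjusted, 0 of 9 were under 0.05 against 10.4% of all genes (5.28% lower and 5.07% higher in A1cf -/-). DESeq2 called 0 of 9, against 1.11% of the 15257 genes to which it gave an adjusted p. Limma-voom called 0 of 9 as well, against 0.0473%. Groups did not overlap for 0 of 9, and for 0.84% of all genes. Of the 9 log2 fold changes, 4 were positive and 5 negative, with a median of -0.016 beside -0.0030 over all genes. For 5 of the 9 the sign held under every alternative tried, and Magt1, Rpn2, Ddost and Krtcap2 changed sign under at least 1. The 95% intervals of all 9 lay between 0.828 and 1.17 times the WT level. A change as large as that of Tusc3, to 74.7% of WT, was outside each of them. That value is the one that chose Tusc3, so it serves as a size only and nothing about Tusc3 is read from it.

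**Figure D2:**
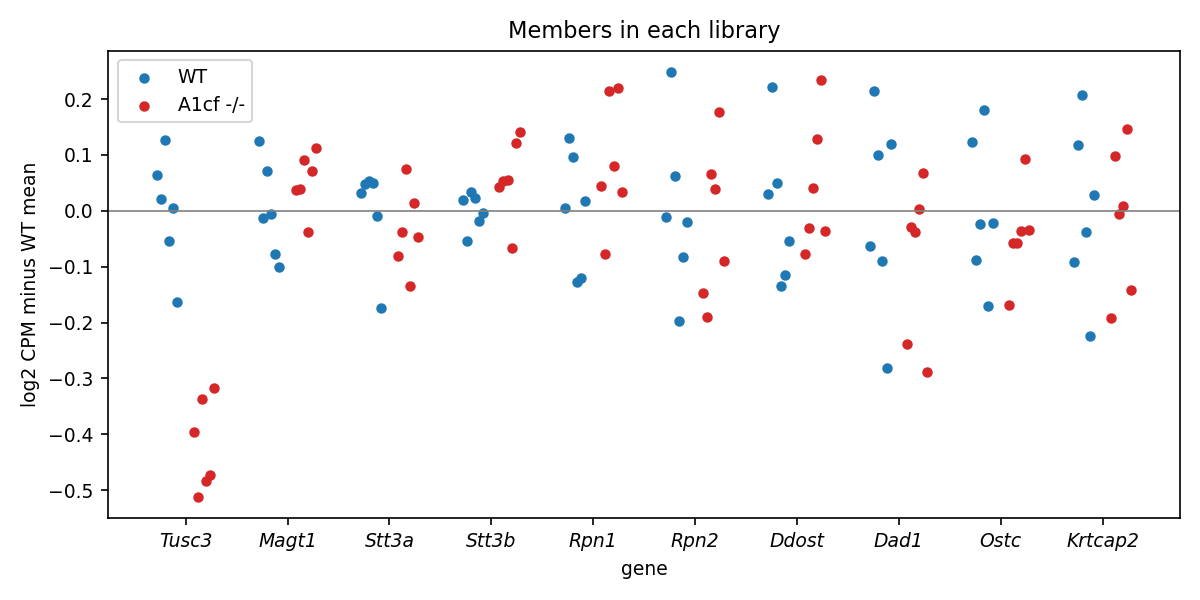
Log2 CPM of each subunit minus its WT mean (y axis) in every library, WT blue and A1cf -/- red (n = 6 each). Tusc3 is the only gene whose red and blue points do not overlap, while Rpn1, Rpn2, Ddost and Dad1 spread widely within each genotype.

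**Figure D3:**
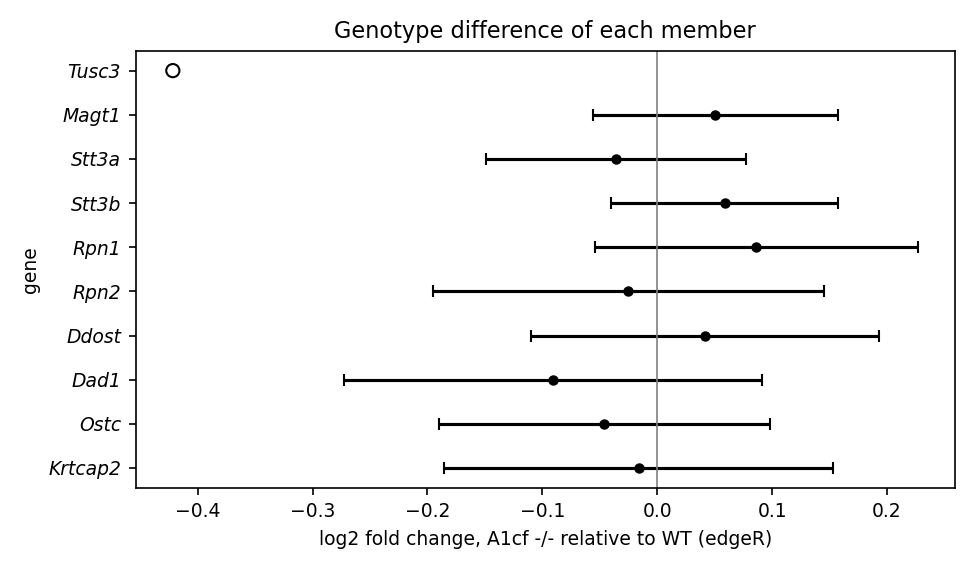
Log2 fold change (x axis, A1cf -/- relative to WT, edgeR) of each subunit, with the 95% interval of the 9 tested ones as bars. Tusc3, which was picked for this difference, is an open point without an interval at -0.42, and all 9 bars cross 0.

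Ordered by level per kilobase of counted exons in WT, Rpn1 (44.6 ± 3.29), Ddost (42.8 ± 4.02) and Rpn2 (39.5 ± 4.19 CPM per kilobase) came first and did not differ beyond their spread. Stt3b followed at 32.2 ± 0.72, below all of these. Tusc3 (24.0 ± 1.65), Krtcap2 (21.96 ± 2.32) and Dad1 (20.9 ± 2.54) were next and overlapped. Magt1 was at 17.7 ± 1.06 and overlapped Dad1, and Stt3a (10.1 ± 0.59) and Ostc (9.50 ± 0.87) were lowest and overlapped (SD, n = 6 each). In A1cf -/- kidneys Tusc3 was at 17.9 ± 1.02, beside Magt1 at 18.4 ± 0.67 CPM per kilobase, with lower means than Krtcap2 (21.7 ± 1.97) and Dad1 (19.7 ± 1.89), whose libraries it overlapped.

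The order depends on which exons count as the gene, because the counted exons merge those of all annotated transcripts. The length of the longest coding transcript was tried as well, a choice made after seeing the data. On it Ostc was at 24.5 CPM per kilobase in WT, Rpn2 at 63.5, Stt3a at 15.4 and Stt3b at 32.0. Tusc3 was at 23.6 and Magt1 at 18.3 in WT, and at 17.6 and 18.9 in A1cf -/-, so the order of the means in each genotype was the same on both lengths. On counted exons the A1cf -/- libraries divide, with Tusc3 just above Magt1 in 574, 588 and 780 (ratios that round to 1.00) and below it in 584, 591 and 602.

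**Figure D4:**
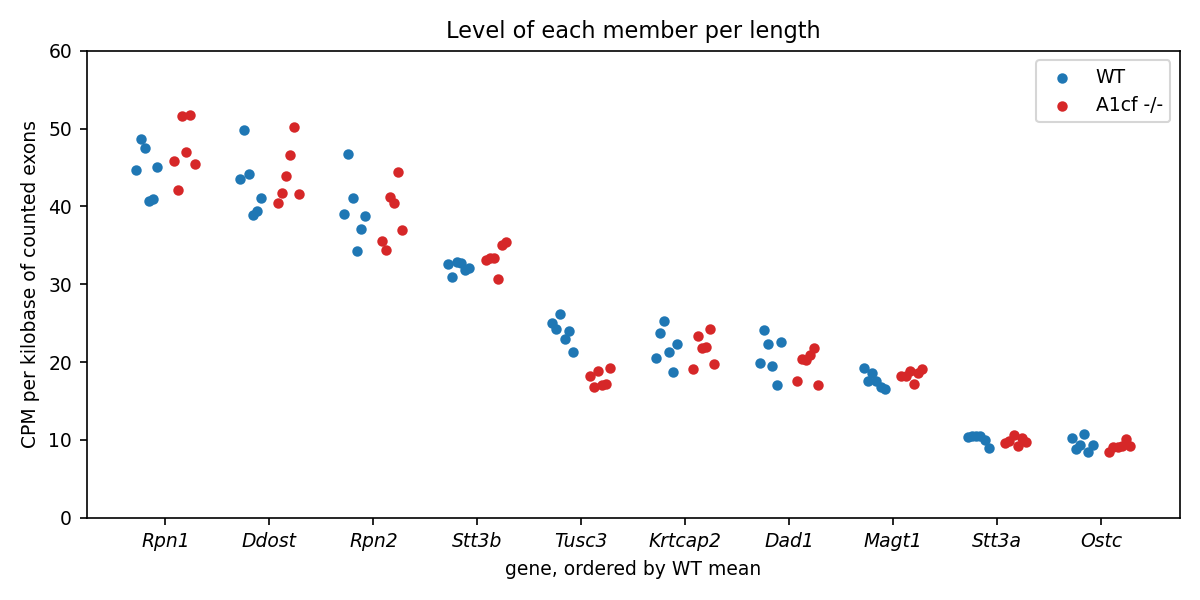
CPM per kilobase of counted exons (y axis from 0) of each subunit in every library, ordered by the WT mean (WT blue, A1cf -/- red, n = 6 each). In WT Tusc3 lies above Magt1 at means of 24.0 and 17.7, and in A1cf -/- both lie near 18.

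Outside these 10 genes, Tmem258 and Ost4 encode further small subunits and Mlec encodes malectin, a sugar-binding protein that associates with ribophorin I. Ost4 averaged 26.4 ± 2.92 in WT against 26.7 ± 3.14 CPM in A1cf -/-, and Tmem258 averaged 26.2 ± 2.76 and 26.6 ± 1.71 CPM. Mlec was the most abundant of them at 860.1 ± 108 and 937 ± 149 CPM (SD, n = 6 each). By edgeR 0 of the 3 passed, at adjusted or unadjusted p, and DESeq2 called 0.

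The pathway that feeds the enzyme was counted next. Of 18 genes for assembly of the lipid-linked sugar chain, 0 passed by edgeR, 2 (Alg6 and Mpdu1) had an unadjusted p under 0.05, both lower in A1cf -/-, and DESeq2 gave 0. The median log2 fold change was -0.025 with 11 of 18 negative. Mpdu1, needed for use of dolichol-linked mannose and glucose, averaged 75.8 ± 5.75 in WT against 68.1 ± 5.88 CPM in A1cf -/-. Alg5, which makes dolichol-phosphate-glucose, was at 44.5 ± 4.0 and 43.5 ± 1.78 CPM. Among 15 genes for dolichol and sugar donors, 0 passed by edgeR, 2 were under 0.05 unadjusted (Gnpnat1 higher, Gmppa lower), and DESeq2 gave 0, with a median of -0.022. Nus1, a subunit of the dolichol-making prenyltransferase, was at 319 ± 38.7 and 312 ± 42.1 CPM, and Uap1, which makes UDP-N-acetylglucosamine, at 79.8 ± 9.16 and 88.9 ± 15.6 CPM.

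Steps after transfer were followed in the same way. A list of 19 genes covered glucose trimming, the calnexin cycle and disposal of misfolded glycoproteins. It also held Lman1 and Mcfd2, which serve export of glycoproteins from the endoplasmic reticulum. Of the 19 genes, 0 passed by edgeR, 2 were under 0.05 unadjusted (Edem3 higher, Lman1 lower), and DESeq2 gave 0. Their median was 0.032 with 13 of 19 positive, but it was -0.027 with the animal number range as covariate. The chaperone genes Calr (448 ± 72.8 and 462 ± 46.7 CPM) and Canx (393 ± 23.3 and 392 ± 14.1 CPM) were the most abundant. Of 16 Golgi genes for N-glycan maturation, 0 passed by edgeR, 1 was under 0.05 unadjusted, higher in A1cf -/-, and DESeq2 gave 0, with a median of 0.029. That gene was Man1a, a Golgi mannosidase, with 149 ± 7.22 in WT against 168 ± 9.05 CPM in A1cf -/- (n = 6 each, edgeR adjusted p = 0.28). Mgat1, which starts hybrid and complex glycans, was at 154 ± 9.43 and 158 ± 7.24 CPM.

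Lists for the other activities ascribed to TUSC3 and MAGT1 gave no call by edgeR or DESeq2. Of 17 endoplasmic reticulum thiol oxidoreductases, 0 passed and 2 were under 0.05 unadjusted by edgeR (Txndc11 higher, Tmx4 lower), with a median of -0.028. P4hb, a protein disulfide isomerase, was at 805 ± 67.4 and 811 ± 76.8 CPM, and Pdia6 at 116 ± 11.9 and 108 ± 7.85 CPM. Of 14 magnesium channels and transporters, 0 passed and 1 was under 0.05 unadjusted by edgeR (Mmgt2, lower), with a median of -0.032. Trpm7, a channel kinase, was at 154 ± 19.0 and 150.1 ± 11.8 CPM, and Mmgt1 at 59.7 ± 4.47 and 61.8 ± 3.48 CPM. These genes with an unadjusted p were named after their values were seen, apart from Mpdu1 and Man1a. Over the 7 lists, 10 of 102 genes had an unadjusted p under 0.05, which is close to the 10.4% of all genes tested.

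**Figure D5:**
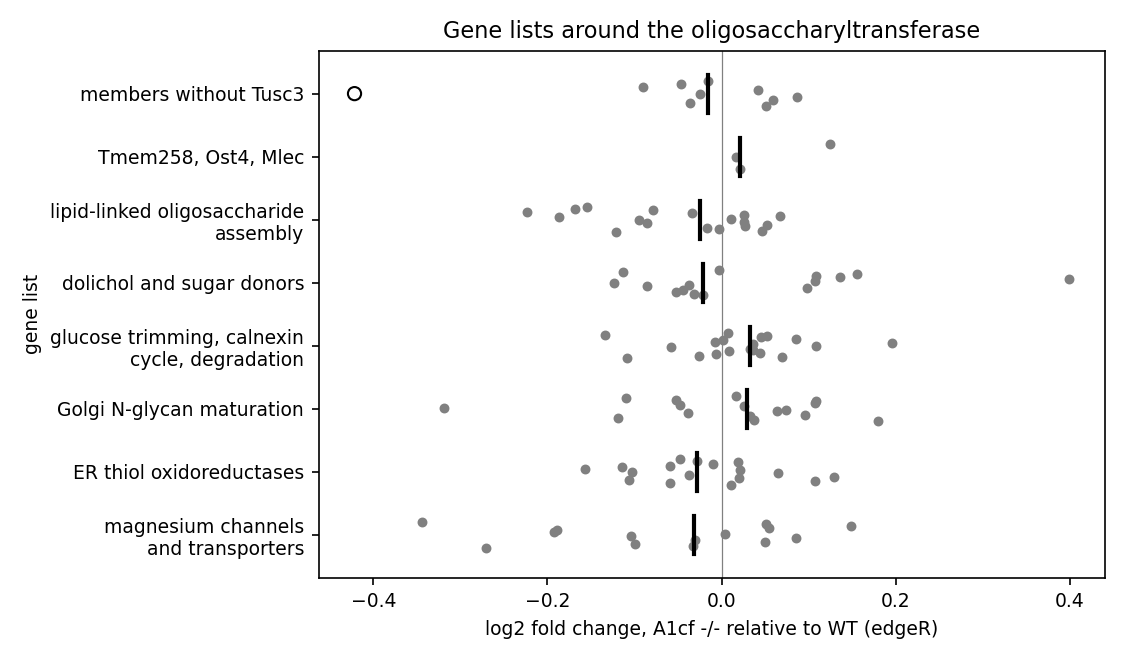
Log2 fold change (x axis, A1cf -/- relative to WT, edgeR) of each gene (grey points) of the 9 tested subunits and 7 pathway lists, with list medians as black bars and Tusc3 as an open point. The medians lie between -0.032 and 0.032, and Tusc3 lies at -0.42.

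Markers of the thick ascending limb, the segment that makes uromodulin, were compared beside Tusc3. All 10 had a negative log2 fold change (median -0.36). Of these 0 passed by edgeR (0.0473% of all genes), and 9 were under 0.05 unadjusted (10.4% of all genes). DESeq2 called 3, Ppp1r1a, Tmem72 and Umod (1.11% of the 15257 genes to which it gave an adjusted p). The genotypes did not overlap for 2, Umod and Cldn16 (0.84% of all genes). Their summed level was 4236 to 5974 CPM in WT and 3193 to 4100 CPM in A1cf -/-, and none was at 0. Umod, which encodes uromodulin, was at 3084 ± 326 and 2218 ± 213 CPM, and Slc12a1, the loop diuretic-sensitive cotransporter, at 1012 ± 269 and 813 ± 86.8 CPM (SD, n = 6 each). Where these sums came closest, WT 590 had 4236 CPM of the markers and 36.7 CPM of Tusc3, and A1cf -/- 591 had 4100 and 25.8 CPM. Tusc3 did not overlap between genotypes, so every such pair of libraries differs in this direction. Nothing is read from this pair. The part of this segment in the Tusc3 difference was not tested.

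The other marker lists had 0 calls by edgeR. Read against the 10.4% of all genes under 0.05 unadjusted, the intercalated cell list had 3 of 8 (Atp6v1b1, Slc4a1 and Aqp6, all lower), with all 8 markers negative and a median of -0.21. The distal convoluted tubule list had 2 of 7 (Slc12a3 and Pvalb, both lower, median -0.19) and the principal cell list 1 of 7 (Scnn1b, lower, median -0.26). Log2 fold changes were negative for 6 of 7 distal convoluted tubule markers and for all 7 tested principal cell markers. In the proximal tubule list 3 of 12 were under 0.05 unadjusted (Slc22a6 and Acsm2 higher, Slc22a8 lower, median 0.058). The macrophage list had 3 of 8 (Adgre1, C1qc and Ctss, all higher, median 0.25), and DESeq2 called Ctss. For fibroblasts and pericytes it was 3 of 7 (Col1a1, Col1a2 and Rgs5, all higher, median 0.30). Podocyte, endothelial, adipocyte and urothelium lists had 0 under 0.05, with medians of 0.045, 0.023, 0.78 and -0.87. Apart from the most abundant of each list, these markers were named after their values were seen. Of 5 adrenal cortex markers 1 was tested and 1 (Cyp11b2) was at 0 in every library. Mitochondrially encoded genes took 10.2 ± 0.99% of counts in WT and 11.7 ± 0.58% in A1cf -/-. The part of these measures in the Tusc3 values was not tested.

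Around Tusc3, 26 gene names lie within 2 Mb and 10 of them were tested. By edgeR 0 passed (0.0473% of all genes) and 2 were under 0.05 unadjusted (10.4% of all genes), both higher in A1cf -/- (Mtmr7 and Mtus1, named after their values were seen). The nearest tested genes, Sgcz at 344359 bases before and Msr1 at 416588 bases after Tusc3, had means of 0.246 and 0.501 CPM. Their log2 fold changes were -0.82 (SE 0.54, edgeR adjusted p = 0.63) and -0.19 (SE 0.33, edgeR adjusted p = 0.88). The nearest tested gene with a mean of at least 1 CPM was Micu3, which encodes a regulator of mitochondrial calcium uptake and lies 1142346 bases beyond the end of Tusc3. It averaged 13.6 ± 1.14 in WT against 14.3 ± 1.15 CPM in A1cf -/- (n = 6 each, edgeR adjusted p = 0.77). On the other side no tested gene within that distance reached 1 CPM.

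Likeness to Tusc3 was measured as the root mean square difference between log2 CPM profiles over 12 libraries, each centred on its mean, among 10424 genes of at least 5 CPM. The nearest were Homez (0.088), Tgds (0.099), Prkcq (0.11), Ebag9 (0.11) and Srpr (0.12), against a median of 0.26 over all candidates. Homez, a homeobox gene, averaged 19.0 ± 0.94 in WT against 14.8 ± 1.31 CPM in A1cf -/-. Srpr, part of the receptor that brings ribosomes to the endoplasmic reticulum, was at 144 ± 5.11 and 119 ± 3.13 CPM (SD, n = 6 each). The measure selects genes that were lower in A1cf -/-, so their levels are a description. Among the 10424 genes, the subunits took places from 912 (Stt3a, 0.20) to 5996 (Rpn1, 0.28), with Magt1 at place 3430. The distance holds the genotype difference that chose Tusc3, so nothing is read from these places.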

How the data were processed

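RNA of 12 whole mouse kidneys (6 WT, 6 A1cf -/-) was sequenced after miRNeasy extraction and Illumina TruSeq library preparation, per the labels' protocols. The deposited table holds read counts per gene name, which the authors made with featureCounts 1.5.0-p2 over GENCODE M8 exons, per the file headers, with no strand, pair or duplicate option set, so reads of overlapping genes on opposite strands could not be told apart. STAR, DESeq2 and mm10 are named in the submitters' processing notes, without versions of the tools. Of 46882 names, 17873 had no read in any library. Each column was matched to a sample by animal number. No 2 libraries agreed within sampling noise (smallest chi-square per degree of freedom 17.3 over 66 pairs).

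The deposited counts entered edgeR 4.0.16 under R 4.3.3 (filterByExpr, TMM, quasi-likelihood F test for genotype, Benjamini-Hochberg over 16910 genes, threshold 0.05), after a test on simulated data. Log2 CPM used a prior count of 2. Standard errors are the fold change divided by the root of F. Alternatives were scaling by upper quartile or by DESeq2 size factors, a filter of 1 CPM in 6 libraries or none, the DESeq2 1.42.0 Wald test, limma-voom (limma 3.58.1), the animal number range as covariate, only animals 573 to 602, and leaving out each library. The subunits, gene lists, markers and tests were chosen with earlier results of these data known. Genes named from a list were those past the threshold or else the 2 most abundant, and, beside these, the nearest tested neighbour of at least 1 CPM on each side and the 5 nearest profiles. Tmem258, Sgcz and Msr1 were named after their values were seen.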

Additional observations from a re-analysis of the deposited data

Results flagged for a closer look

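Within groups, 24 sets of 6 values (10 subunits and 2 ratios in each genotype) were searched for a library far from the others, which chance alone gives in about 1 of 20 sets. Stt3a in WT 778 was at 80.2 CPM, with the other WT libraries at 89.9 to 93.8 CPM, a gap of 0.71 of the range. The Stt3a to Stt3b ratio per kilobase in the same library was 0.279, with the others at 0.316 to 0.338, and it rests on the same Stt3a value.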

How the results depend on the processing

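Tusc3 kept its sign in 20 alternatives, with log2 fold changes from -0.45 to -0.40 when 1 library was left out and -0.51 within animals 573 to 602. It was picked for this difference and its genotypes did not overlap, so the held sign is a description and no support. Among the other 9 subunits, 0 passed in any of the 20, and the smallest adjusted p was 0.44. The count of all genes called by edgeR was 8, and it was 170 with the DESeq2 Wald test, 24 with the animal number range as covariate, and 6 to 12 when 1 library was left out. Of 180 subunit values, 9 changed sign. Ddost was -0.011 with the covariate and -0.042 within animals 573 to 602, where Magt1 was -0.023. When 1 library was left out, Rpn2 ran from -0.067 to 0.029 and Krtcap2 from -0.057 to 0.028. Within animals 573 to 602 the median of the lipid-linked sugar assembly list was -0.084 and that of the calnexin cycle list -0.050. The calnexin cycle median thus changed sign, from 0.032 over all libraries, and was -0.027 with the covariate. The median of Tmem258, Ost4 and Mlec changed from 0.022 to -0.025 with the covariate. With 1 library left out, this median ran from -0.029 to 0.062 and that of the calnexin cycle list from -0.0055 to 0.048. The dolichol and sugar donor median, -0.022 over all libraries, ran from -0.051 to 0.019 in the same way. The Stt3a to Stt3b difference ran from -0.13 to -0.072 without 1 library (exact permutation p from 0.011 to 0.15). The cause of these shifts was not tested. No paired analysis was made because the sample labels used here give no litter or other pairing of animals.

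The lowest count of a subunit in any library was 751 (Ostc in A1cf -/- 780).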
